A study of Mus musculus with 9 samples.

Results

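The genes examined were 7 subunits of the GABA-A receptor: Gabra2, Gabra3, Gabra4, Gabra5, Gabrb1, Gabrb2 and Gabrg3. They were taken from the table by matching its Ensembl gene identifiers to these symbols, and all 7 were found among the 48526 genes listed. They were measured by RNA sequencing in 9 libraries from the medial ganglionic eminence (MGE) of C57BL/6 mice at embryonic day 14.5; this part of the ventral forebrain produces many cortical interneurons. The 5 knockout libraries carried both floxed alleles of Ctnnb1 (Ctnnb1fl/fl) together with Nkx2.1-cre and the Rosa26-YFP reporter. The 4 control libraries carried the same Cre and reporter; controls 1, 2 and 3 had no floxed allele, and control 4 had 1 (Ctnnb1fl/wt). Every library therefore carried the Cre recombinase and the fluorescent reporter. Because the Cre is driven by Nkx2-1 regulatory sequence, recombination is limited to cells with a history of Nkx2-1 expression, and other cells in the tissue keep the gene. The protocol names both collected cells and removed tissue without saying which applies to a library, and separate embryos are not stated, so the spread between libraries that the p-values rest on may be technical.

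GABA-A receptors are pentameric chloride channels opened by the transmitter GABA. Most brain receptors combine alpha, beta and gamma subunits: GABA binds between alpha and beta subunits, benzodiazepines bind between alpha and gamma subunits, and the subunit mix sets the receptor's kinetics, drug response and place on the cell. In the embryonic forebrain these receptors appear before synapses do, and because immature neurons hold much chloride, GABA tends to depolarise them; this signal is known to influence the division of precursors and the migration of interneurons. Ctnnb1 encodes beta-catenin, which joins cadherins to the cytoskeleton and is the coactivator of TCF/LEF factors in canonical Wnt signalling.

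The promoters of the 3 subunits that differed between the groups are shown first, at some of their annotated starts, to show the sequence that the motif search below refers to. Sequences are from RefSeq on GRCm38.p6 and run from 250 bases before to 50 after a start, on the gene's own strand; all 7 genes had an entry, with 11 windows in total. Capitals mark matches to the searched motifs. The middle Gabrb2 window and a second Gabra3 window, which overlaps the first, are not shown.
Gabra3, chrX:72656870-72657169, minus strand: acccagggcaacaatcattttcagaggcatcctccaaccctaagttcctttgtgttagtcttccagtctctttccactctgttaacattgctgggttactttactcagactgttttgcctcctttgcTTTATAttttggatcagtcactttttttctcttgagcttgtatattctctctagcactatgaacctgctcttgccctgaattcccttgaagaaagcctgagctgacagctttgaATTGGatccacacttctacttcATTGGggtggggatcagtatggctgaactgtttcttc
Gabrb2, first start, chr11:42420190-42420489, plus strand: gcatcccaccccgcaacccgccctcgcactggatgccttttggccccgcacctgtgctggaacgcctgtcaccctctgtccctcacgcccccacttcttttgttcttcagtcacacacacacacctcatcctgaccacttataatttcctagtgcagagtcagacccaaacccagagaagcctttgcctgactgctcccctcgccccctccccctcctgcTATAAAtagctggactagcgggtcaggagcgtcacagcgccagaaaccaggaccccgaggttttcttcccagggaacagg
Gabrb2, last start, chr11:42420951-42421250, plus strand: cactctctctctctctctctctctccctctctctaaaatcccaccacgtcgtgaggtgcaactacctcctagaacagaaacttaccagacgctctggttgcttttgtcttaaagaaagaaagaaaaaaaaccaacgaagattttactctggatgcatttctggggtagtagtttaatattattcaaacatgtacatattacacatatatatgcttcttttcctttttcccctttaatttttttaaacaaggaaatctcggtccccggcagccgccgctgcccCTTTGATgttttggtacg
Gabrg3, chr7:57387166-57387465, minus strand: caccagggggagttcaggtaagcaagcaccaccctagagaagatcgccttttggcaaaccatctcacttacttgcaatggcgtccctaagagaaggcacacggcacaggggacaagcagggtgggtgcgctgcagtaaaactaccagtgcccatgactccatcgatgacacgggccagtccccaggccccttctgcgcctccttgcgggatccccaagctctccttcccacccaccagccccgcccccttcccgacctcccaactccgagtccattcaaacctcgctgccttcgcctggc
The search covered 7 motifs on both strands: the TCF/LEF letters CTTTGAT, the homeodomain letters TAATTA, the E-box CAGCTG, the CRE half-site TGACGT, the EGR letters GCGTGGGCG, the TATA letters TATAAA and the CCAAT box CCAAT. Only these exact letters were searched, so variants of a motif were neither marked nor counted. No matches in the 4 windows shared a base. With the start base counted as 0, TATAAA lay at -30 in the first Gabrb2 window, and CTTTGAT lay at 32 in the last Gabrb2 window. The Gabra3 window shown held TATAAA on the opposite strand at -123 and CCAAT on the opposite strand at -9 and 13. In the middle Gabrb2 window, which is not shown, CCAAT lay on the opposite strand at -71. The Gabrg3 window held none of the 7 motifs. Over the 11 windows of the 7 genes, CTTTGAT was found in 1, TATAAA in 3, of which 2 are overlapping windows of Gabra3, and CCAAT in 6, of which 2 are again the overlapping windows of Gabra3 with the same matches. Among all 32817 RefSeq windows of this length, CTTTGAT was in 3.73%, TATAAA in 13.6%, CCAAT in 37.4%, CAGCTG in 16.3%, TGACGT in 7.51%, TAATTA in 5.30% and GCGTGGGCG in 0.612%. Base composition differed widely between the subunits: GC content was 70.0% in the Gabra2 window with 25 CpG dinucleotides, 61.0% in Gabrg3 with 13, 59.0% in the first Gabrb2 window with 11, and 43.0% in the Gabra3 window shown with 0, against medians of 52.7% and 7 over all windows. The middle and last Gabrb2 windows had 54.7% and 41.0%, with 9 CpG dinucleotides each. A match of letters is a description of the window and not a site shown to be bound.

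Depth was alike in the libraries, at 5120585 to 5569444 reads counted per library, so that 1 read was worth between 0.957 and 1.01 normalized counts. Ctnnb1 itself (chromosome 9, 120929216 to 120960507, mm10) had 7103, 7661, 7133, 6572 and 5477 normalized counts in knockouts 1 to 5, against 9841, 9960, 9967 and 9545 in controls 1 to 4. The count covers the whole gene and not the floxed part alone. Its knockout mean of 6789 ± 828 (SD, n = 5) was 69.1% of the control mean of 9828 ± 197 (SD, n = 4), and every knockout lay below every control (exact permutation test of the group means, two-sided, p = 0.00794, the smallest that 126 arrangements allow). The MGE label was met by Lhx6, a transcription factor of MGE-derived interneurons, at mean levels of 5210 normalized counts in knockouts and 2999 in controls. Control 1 stood apart: a list of 15 dorsal telencephalon genes summed to 3919 normalized counts there, while knockouts had 380 to 1067 and the remaining controls 262 to 331. A list of 8 choroid plexus genes summed to 3029 in control 1, against 168 to 739 in knockouts and 168 to 367 in the other controls. Fold changes and calls without control 1 are therefore given below where a call or direction changed, or a value moved by over 1.5 times. They are also given for the lists whose counts changed. Group means and levels per kb are given with all libraries.

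Of the 7 subunits, Gabra3, Gabrb2 and Gabrg3 rose in the knockout, none fell, Gabra2 and Gabra4 were tested and did not pass the threshold, and Gabra5 and Gabrb1 were under the filter on low values. The test was limma on log2(normalized count + 1) over 13780 genes whose mean reached 10 normalized counts; p-values were adjusted over all of them by the Benjamini-Hochberg method, and the threshold was 0.05. At an unadjusted p under 0.05 in limma, Gabra2 would be added to the higher subunits and 0 would be lower. Over all tested genes, 34.5% were called, 17.2% higher and 17.3% lower in the knockout, so calls in both directions were common in this comparison. Gabrg3 passed the filter only through its knockout libraries, and Gabra4 only through its controls, chiefly control 1. The count of 3 among the 5 tested subunits is therefore not read as a result about the family. In bulk libraries, of tissue or of collected cells, a change in the share of cells that express a gene and a change in RNA per cell cannot be told apart. Log2 fold changes are differences of means on this scale, knockout minus control, and are too small for genes at low counts.

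**Figure D1:**
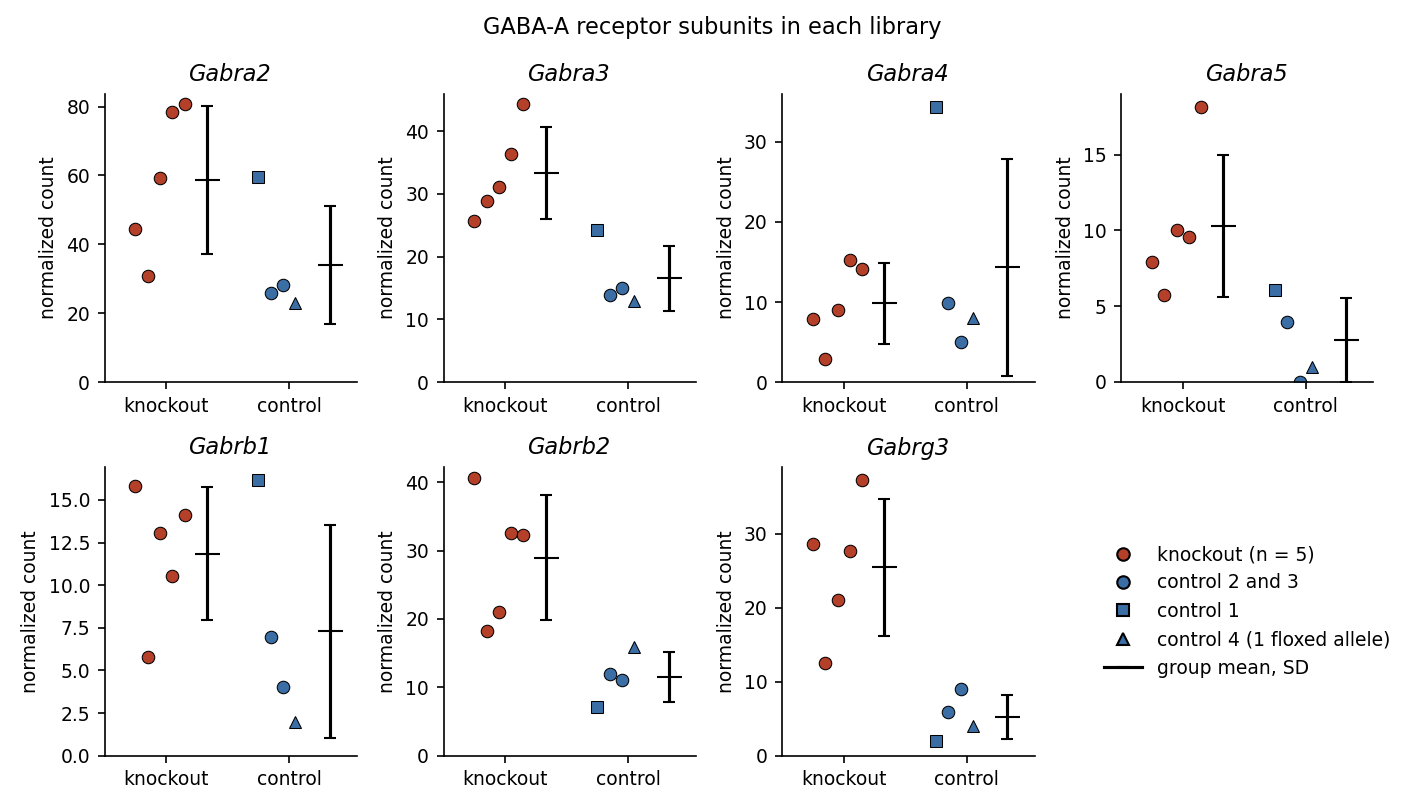
Normalized counts of the 7 subunits, with knockouts on the left and controls on the right of each panel; each point is a library, horizontal bars are group means and vertical bars 1 SD. The knockouts lie above all controls for Gabra3, Gabrb2 and Gabrg3, and control 1 (square) is the highest control for Gabra2, Gabra3, Gabra4, Gabra5 and Gabrb1.

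Among the alpha subunits, Gabra3 was the member that rose. Its product, alpha-3, is an alpha subunit found widely in the embryonic brain and in adult brain stem and deep cortical neurons, and the gene (ENSMUSG00000031343) lies on the minus strand of chromosome X at 72432681 to 72656848 (mm10, GENCODE M21, as for all positions below). Gabra3 had 25.7, 28.8, 31.1, 36.4 and 44.3 normalized counts in knockouts 1 to 5, against 24.3, 13.9, 15.1 and 13.0 in controls 1 to 4. The groups did not overlap, but the highest control, control 1, lay just under the lowest knockout, knockout 1. The knockout mean was 33.3 ± 7.30 (SD, n = 5) and the control mean 16.5 ± 5.21 (SD, n = 4); the log2 fold change was 0.98 with an SE of 0.246 (adjusted p = 0.00691). The change stayed past the threshold in all 18 alternative fits tried, with log2 fold changes from 0.75 to 1.17.

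Gabra2 (ENSMUSG00000000560; chromosome 5, minus strand, 70957597 to 71095849) encodes alpha-2, a subunit found early in forebrain development and, in mature neurons, at synapses on the axon initial segment. Its levels were 44.5, 30.8, 59.2, 78.5 and 80.6 normalized counts in knockouts 1 to 5, against 59.6, 25.8, 28.1 and 22.9 in controls 1 to 4. The overlap came from control 1, which exceeded knockouts 1, 2 and 3; the other controls lay below every knockout. Mean levels were 58.7 ± 21.5 in knockouts (SD, n = 5) and 34.1 ± 17.1 in controls (SD, n = 4), and the log2 fold change of 0.79 (95% interval 0.086 to 1.49) did not pass (adjusted p = 0.0770). Without control 1 the log2 fold change was 1.08 and passed (adjusted p = 0.0126). Without knockout 2, the lowest knockout, it was 0.99 and passed (adjusted p = 0.0161). It also passed with array weights (adjusted p = 0.0407) and with no filter on low values (adjusted p = 0.00445). The adjusted p-value with no filter is not comparable with the others, as described below for Gabra5. Knockouts 4 and 5, the highest for Gabra2, also had the highest dorsal telencephalon sums among the knockouts, at 754 and 1067 normalized counts. The part of cortical or choroid plexus transcripts in these values was not tested.

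Gabra4 encodes alpha-4, a subunit best known from receptors outside synapses in thalamus and hippocampus, where it often pairs with the delta subunit. Its gene (ENSMUSG00000029211) lies on the minus strand of chromosome 5 at 71569749 to 71658308. It had 7.91, 2.88, 9.03, 15.3 and 14.1 normalized counts in knockouts 1 to 5, against 34.4, 9.93, 5.02 and 7.97 in controls 1 to 4. Control 1 alone had more than any knockout, and the other controls lay within the knockout range. The means were 9.85 ± 5.02 in knockouts (SD, n = 5) and 14.3 ± 13.5 in controls (SD, n = 4), with a log2 fold change of -0.31 (95% interval -1.44 to 0.82, adjusted p = 0.677). That sign turned to 0.21 without control 1, to 0.02 without knockout 2 and to 0.26 against controls 2 and 3 only, so no direction can be given.

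Gabra5 encodes alpha-5, which in the adult is typical of hippocampal receptors outside synapses; the gene (ENSMUSG00000055078) lies on the minus strand of chromosome 7 at 57407672 to 57510059. Its levels were low in all libraries, at 7.91, 5.77, 10.03, 9.57 and 18.1 normalized counts in knockouts 1 to 5, against 6.06, 3.97, 0 and 0.996 in controls 1 to 4. Only knockout 2 lay within the control range, just below control 1, and the 0 in control 3 allows a level of up to 3.01 normalized counts (3 counts, counting error only). With a mean of 6.94 over the 9 libraries Gabra5 was not tested in the filtered fit. Group means were 10.3 ± 4.70 in knockouts (SD, n = 5) and 2.76 ± 2.78 in controls (SD, n = 4). In the fit with no filter its log2 fold change was 1.87 and passed (adjusted p = 0.000445), at no more than 18.1 normalized counts in any library. At the same log2 fold changes, that fit gave other adjusted p-values in limma than the filtered fit. For Ctnnb1 it gave 3.03e-12 against 0.000811, and for Gabre 0.110 against 0.0326. A pass there is therefore not comparable with one in the filtered fit.

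Of the beta subunits, Gabrb2 rose. It encodes beta-2, the most abundant beta subunit of the adult brain, and the gene (ENSMUSG00000007653) lies on the plus strand of chromosome 11 at 42419757 to 42629028. Gabrb2 had 40.6, 18.3, 21.1, 32.5 and 32.2 normalized counts in knockouts 1 to 5, against 7.08, 11.9, 11.1 and 15.9 in controls 1 to 4. Knockout 1 was the highest and control 1 the lowest, and the closest values of the groups were 18.3 in knockout 2 and 15.9 in control 4. The mean was 28.9 ± 9.15 in knockouts (SD, n = 5) and 11.5 ± 3.64 in controls (SD, n = 4), and the log2 fold change was 1.25 with an SE of 0.297 (adjusted p = 0.00513). It stayed past the threshold in all 18 alternative fits, with log2 fold changes from 0.90 to 1.41.

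Gabrb1 encodes beta-1, a minor beta subunit of the adult brain; the gene (ENSMUSG00000029212) lies on the plus strand of chromosome 5 at 71658113 to 72149037. Its levels were 15.8, 5.77, 13.0, 10.5 and 14.1 normalized counts in knockouts 1 to 5, against 16.2, 6.95, 4.02 and 1.99 in controls 1 to 4. Control 1 was the highest of the 9 libraries and control 4 the lowest, so the control range took in every knockout; among the other controls, control 2 at 6.95 was the only one above any knockout, knockout 2. With a mean of 9.82, Gabrb1 lay just under the filter. Its group means were 11.9 ± 3.91 in knockouts (SD, n = 5) and 7.28 ± 6.27 in controls (SD, n = 4), and with no filter the log2 fold change of 0.87 did not pass (adjusted p = 0.129). The difference of the log2 means was 1.32 without control 1 and 0.48 without control 4, so its size rests on those libraries.

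Gabrg3 had the largest log2 fold change of the 5 tested subunits. It encodes gamma-3, a minor gamma subunit of the adult brain, and the gene (ENSMUSG00000055026) lies on the minus strand of chromosome 7 at 56716465 to 57387188. Gabrg3 had 28.7, 12.5, 21.1, 27.7 and 37.3 normalized counts in knockouts 1 to 5, against 2.02, 5.96, 9.04 and 3.99 in controls 1 to 4. The groups did not overlap, and control 1 was the lowest library here, in contrast to its place for the alpha subunits. The knockout mean was 25.5 ± 9.25 (SD, n = 5) and the control mean 5.25 ± 2.995 (SD, n = 4), and the log2 fold change was 2.13 with an SE of 0.392 (adjusted p = 0.00105). All 18 alternative fits kept it past the threshold, with log2 fold changes from 1.31 to 2.41. Its control mean lay under the filter on low values, so in the filtered fits Gabrg3 was tested only through its knockout libraries. Those fits share this selection and are no check on it. The adjusted p-value of the fit with no filter is not comparable, as described for Gabra5.

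**Figure D2:**
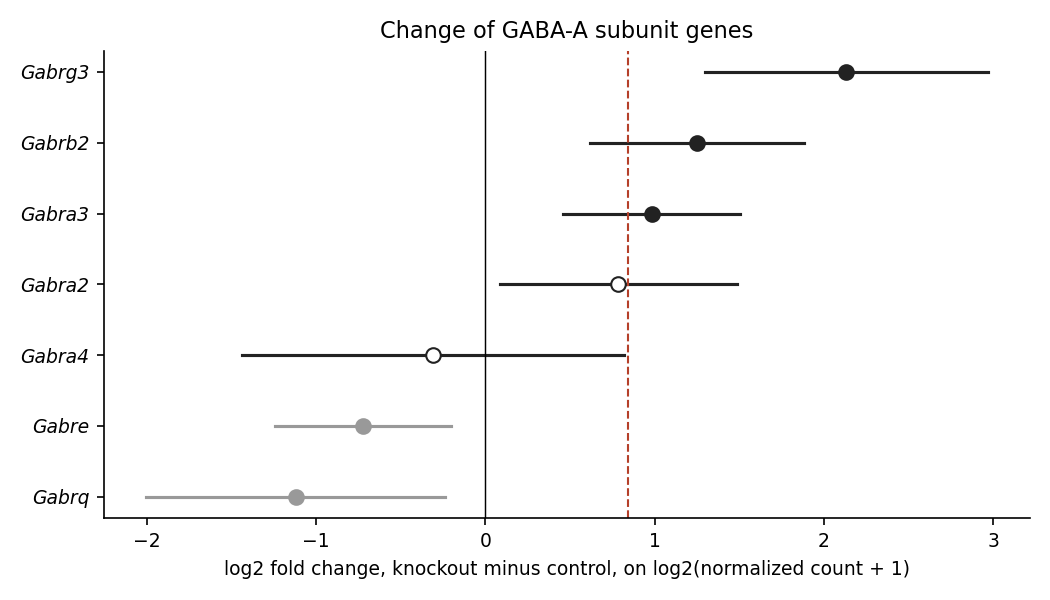
Log2 fold change, knockout minus control, of 7 tested GABA-A subunit genes, with 95% intervals; the 5 examined subunits are black, Gabre and Gabrq grey, and filled points passed the threshold. Gabrg3 at 2.13, Gabrb2 at 1.25 and Gabra3 at 0.98 lie right of 0 with their intervals, and the dashed line marks 0.84, the median of 18 pan-neuronal genes.

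The same libraries often stood at the ends of the range. Knockout 2 was the lowest knockout for 6 of the 7 subunits, and knockout 5 the highest for 4. Control 1 was the highest control for 5 of the 7, and the lowest for Gabrb2 and Gabrg3. The 7 subunits summed to 171, 105, 165, 210.5 and 241 normalized counts in knockouts 1 to 5, against 149.6, 78.5, 72.3 and 66.8 in controls 1 to 4. Knockout 2, the lowest knockout, lay below control 1 and above the other controls. Every knockout exceeded every control for Gabra3, Gabrb2 and Gabrg3, and this was so for 14.5% of all tested genes; since Gabrg3 passed the filter only through its knockouts, nothing about the family is read from this count.

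Lists of cell type markers moved with the groups as well. Over all tested genes, 17.2% were called higher and 17.3% lower, and no list was tested as a set. Of 18 pan-neuronal genes, 13 rose and 0 fell; the median log2 fold change was 0.84 in this list and -0.011 over all tested genes; their sum was 36529 to 48941 normalized counts in knockouts and 20395 to 25562 in controls. Of 16 genes of migrating MGE interneurons, 15 rose and 0 fell, with a median of 1.39. Of 15 DNA replication genes, 0 rose and 15 fell, with a median of -1.03 and sums of 6429 to 13084 in knockouts and 17149 to 21047 in controls. Of 15 radial glia genes, 0 rose and 8 fell, with a median of -0.85. Knockout 2 again had the lowest neuronal and the highest replication sum among knockouts, and knockout 5 the highest neuronal and the lowest replication sum. In limma with all libraries, 0 of 15 dorsal telencephalon genes, 0 of 5 choroid plexus genes, 0 of 6 microglial genes, 0 of 9 endothelial and pericyte genes and 0 of 7 red blood cell genes passed the threshold. At an unadjusted p under 0.05 these lists held 1 lower dorsal telencephalon gene and 3 lower microglial genes, and 0 in the other 3 lists. Median log2 fold changes were -0.096 in the dorsal telencephalon list and 0.32 in the choroid plexus list with all libraries, and 0.97 and 1.58 without control 1; without it, 2 of the dorsal telencephalon genes rose and 0 fell, and 0 choroid plexus genes passed. Leaving out control 1 also gave 15 higher pan-neuronal genes and 10 lower radial glia genes. Of 4 tested astroglial genes 2 rose and 0 fell, and of 7 oligodendrocyte lineage genes 1 rose and 1 fell (0 rose and 1 fell without control 1). No listed marker was at 0 in every library. The part of cell composition in the subunit changes was not tested.

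**Figure D3:**
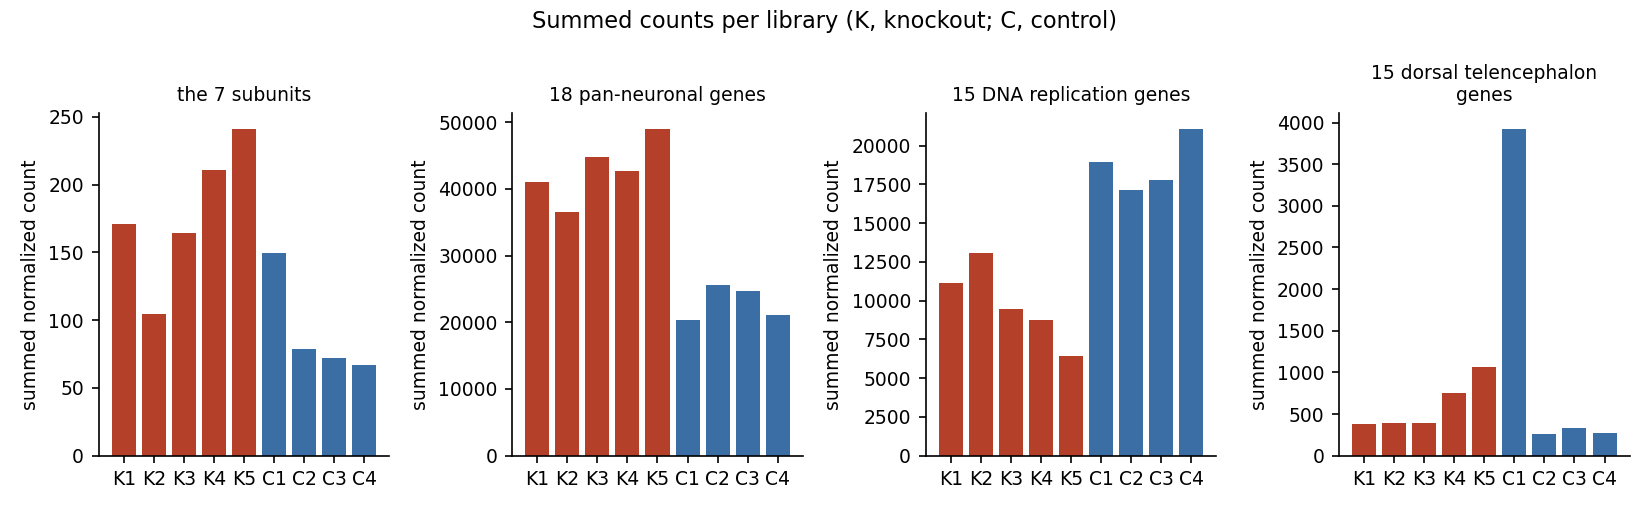
Summed normalized counts per library of the 7 subunits, 18 pan-neuronal genes, 15 DNA replication genes and 15 dorsal telencephalon genes; K1 to K5 are knockouts and C1 to C4 controls, and each panel has its own axis. Neuronal sums are higher and replication sums lower in every knockout than in every control, and control 1 reaches 3919 in the dorsal telencephalon panel.

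Of 9 further GABA-A subunit genes outside the 7, 2 passed the filter on low values; 0 rose and both fell. These were Gabre for epsilon and Gabrq for theta, which encode less common subunits; both were low. Gabre averaged 13.2 ± 2.31 normalized counts in knockouts (SD, n = 5) and 22.3 ± 3.41 in controls (SD, n = 4), with a log2 fold change of -0.72 (adjusted p = 0.0326). Gabrq averaged 9.39 ± 4.57 in knockouts (SD, n = 5) and 19.0 ± 2.59 in controls (SD, n = 4), with a log2 fold change of -1.12 (adjusted p = 0.0483). The Gabre call was lost without control 1, 3 or 4 or knockout 3, 4 or 5 (adjusted p = 0.0530 to 0.0966), and the Gabrq call without any 1 of the controls or knockout 2, 3 or 5 (adjusted p = 0.0605 to 0.116). Without knockout 5, the lowest library for Gabrq, its log2 fold change was -0.72. Gabrq passed the filter only through its controls, so the count of 2 is not read as a result about these genes. Under the filter, Gabrg1 averaged 7.24 in knockouts and 3.75 in controls, and Gabrp, the pi subunit gene, 11.2 in knockouts and 8.25 in controls. Gabra6, known from cerebellar granule cells, Gabrd, which encodes delta, and Gabrr1, Gabrr2 and Gabrr3, which are known from retina, had group means of at most 3.74 normalized counts in knockouts and 3.50 in controls.

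The levels of the 7 subunits were set out per length, as normalized counts per kilobase of exon, so that genes could be compared. The knockout means ran from Gabra3 at 8.48 per kb and Gabra2 at 7.68 through Gabrb2 at 4.55, Gabra5 at 3.46, Gabrg3 at 2.13 and Gabra4 at 1.62 to Gabrb1 at 0.857. The control means ran from Gabra2 at 4.47 per kb and Gabra3 at 4.22 through Gabra4 at 2.35, Gabrb2 at 1.81, Gabra5 at 0.928 and Gabrb1 at 0.526 to Gabrg3 at 0.440. Within each order, the ranges of neighbouring genes overlapped. All genes were measured in the same libraries, so this overlap cannot show whether adjacent ranks differ, which was not tested.

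Among the 4 alpha subunit genes examined, Gabra2 and Gabra3 led in every library by share of their summed level per kb. Gabra2 held 35.6 ± 4.23% in knockouts (SD, n = 5) and 38.0 ± 4.32% in controls (SD, n = 4), and Gabra3 41.2 ± 6.89% in knockouts and 37.97 ± 7.55% in controls. Gabra5 held 15.9 ± 2.82% in knockouts, with a range of 12.7 to 20.1%, and 6.78 ± 5.91% in controls, with a range of 0 to 13.5%. Gabra4 held 7.25 ± 2.37% in knockouts, with a range of 3.44 to 9.96%, and 17.2 ± 6.66% in controls, with a range of 9.89 to 26.1%. The groups thus overlapped for the Gabra5 share, at knockout 4 and control 2, and for the Gabra4 share, at knockout 4 and control 3. These shares were not tested, and shares of 1 sum are not independent of each other.

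**Figure D4:**
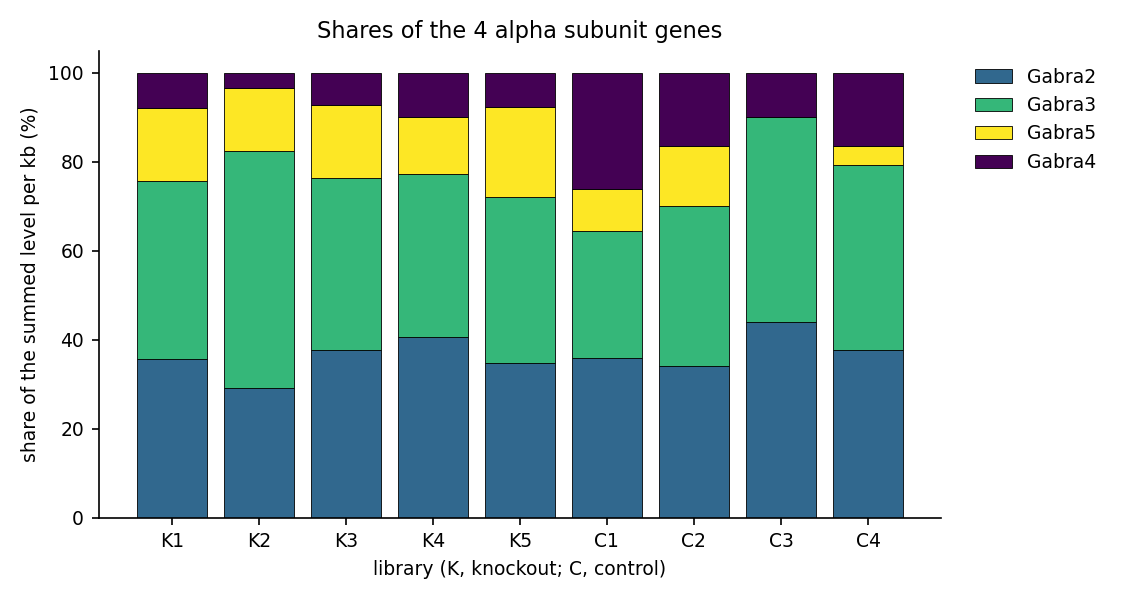
Share of each of the 4 alpha subunit genes examined in their summed level per kb of exon, in percent, for each library (K1 to K5 knockouts, C1 to C4 controls). Gabra2 and Gabra3 together fill most of every bar, Gabra4 is widest in control 1 at 26.1%, and Gabra5 is at 0 in control 3.

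Proteins that work with the receptor were counted from a list of 22 genes, of which 21 were in the table. Of these, 10 rose and 0 fell, where 17.2% of all tested genes rose and 17.3% fell. The median log2 fold change of the list was 0.25, and the list was not tested as a set. At an unadjusted p under 0.05 in limma, 12 were higher and 1 lower. Without control 1, 11 of the list rose and 1 fell. Shisa7, a receptor-associated membrane protein, averaged 239.8 ± 82.5 normalized counts in knockouts (SD, n = 5) and 73.7 ± 10.3 in controls (SD, n = 4), a log2 fold change of 1.63 (adjusted p = 0.000223). Gabarapl1, a relative of the receptor-associated protein GABARAP that also serves in autophagy, had a log2 fold change of 0.76 (adjusted p = 0.000356). Kif5a, a kinesin that carries receptors along microtubules, had a log2 fold change of 1.03 (adjusted p = 0.000383). Gphn, the gene for the inhibitory scaffold protein gephyrin, averaged 180.5 ± 13.5 in knockouts (SD, n = 5) and 172 ± 5.63 in controls (SD, n = 4) and did not pass (adjusted p = 0.650); it is named for its role and was chosen after its values were seen.

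Genes for GABA supply and chloride numbered 10, of which 6 rose and 2 fell, and the median log2 fold change was 0.79. Without control 1, 5 rose and 2 fell. Over all tested genes 17.2% rose and 17.3% fell, and neither this list nor the receptor lists below were tested as sets. Gad1, an enzyme that makes GABA, averaged 1453 ± 95.5 normalized counts in knockouts (SD, n = 5) and 662 ± 265 in controls (SD, n = 4), with a log2 fold change of 1.23 (adjusted p = 0.00578), which was 0.72 against controls 2 and 3 only (adjusted p = 0.000887). Slc32a1, the vesicular GABA transporter, had a log2 fold change of 1.22 (adjusted p = 0.00541), and Slc6a11, a GABA uptake transporter, a log2 fold change of 2.60 (adjusted p = 0.000111). The chloride transporters are of interest because they set the direction of current through the receptor, and were likewise chosen after their values were seen. Slc12a2 (NKCC1), which loads chloride, averaged 347 ± 39.1 in knockouts (SD, n = 5) and 460.0 ± 57.2 in controls (SD, n = 4) and fell by 0.40 on the log2 scale (adjusted p = 0.0112). Slc12a5 (KCC2), which extrudes it, averaged 93.0 ± 27.2 in knockouts (SD, n = 5) and 63.0 ± 7.07 in controls (SD, n = 4), and its log2 fold change of 0.51 did not pass (adjusted p = 0.0550). Of 3 tested genes of the metabotropic GABA-B receptor, 1 rose and 0 fell (2 and 0 without control 1). The gene that rose with all libraries was Gabbr1, the GABA-binding subunit, which averaged 1413 ± 199 in knockouts (SD, n = 5) and 745 ± 129 in controls (SD, n = 4) (log2 fold change 0.93, adjusted p = 0.000196). Of the related glycine receptor genes 2 were tested. Glra2, the embryonic alpha subunit, rose to 62.1 ± 30.3 normalized counts in knockouts (SD, n = 5), against 10.1 ± 7.55 in controls (SD, n = 4) (log2 fold change 2.56, adjusted p = 0.00136). Glrb, the beta subunit that binds gephyrin, fell by 0.46 on the log2 scale (adjusted p = 0.0456), a call lost without any 1 of the controls or knockout 3 or 5 (adjusted p = 0.0572 to 0.109).

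The genes with the most similar profiles were sought among 9683 genes whose mean reached 50 normalized counts, by the root mean square difference of centred log2 values over the 9 libraries. For Gabra3 these were Sult4a1, a brain sulfotransferase relative, at 0.122 and Cadps, a factor in dense-core vesicle release, at 0.131, against a median of 0.610 over all candidates. For Gabra2 they were Draxin, a secreted axon guidance protein, at 0.204 and Rlbp1, a retinoid-binding protein, at 0.253, with a median of 0.686. Draxin was also high in control 1, with 399 normalized counts there and 119 to 151 in controls 2, 3 and 4. For Gabrb2 the nearest were Armc7 at 0.243 and Arhgap20, a GTPase-activating protein, at 0.263, with a median of 0.765. For Gabrg3 they were Elfn1, a postsynaptic adhesion protein of interneurons, at 0.324 and Rpp25, an RNase P and MRP subunit, at 0.345, with a median of 1.22. For Gabra4 the nearest, Nfatc4 and Fam49a, were farther away, at 0.424 and 0.474, with a median of 0.899. All these profiles share the same 9 libraries. The nearest of 9683 candidates lie under their median by selection. The median therefore gives the scale and is no test of similarity.

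The 7 genes are long and lie near other subunit genes. Their spans ran from 88.6 kb for Gabra4 to 671 kb for Gabrg3, against a median of 25.9 kb for 12104 tested protein-coding genes, of which 82.2% were shorter than Gabra4 and 99.3% shorter than Gabrg3. On chromosome 7, Gabrg3 rose and its neighbour Gabra5, 20.48 kb away, was too low to be tested. On chromosome X, Gabra3 rose and lay between Gabre and Gabrq, at gaps of 158 and 168 kb. Gabre and Gabrq were called lower, but each call was lost when any of several single libraries was left out. On chromosome 5, Gabra2 and Gabra4 are 474 kb apart and did not pass, and Gabra4 and Gabrb1 start head to head with an overlap of 196 bases, of which 46 are exonic in both. Gabra5 shares 148 exonic bases with the antisense gene Gm9962. The library kit named in the protocol does not mark strand, so reads in these shared bases cannot be assigned to a strand, and counts of Gabra4, Gabrb1 and Gabra5 are uncertain to that extent.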

How the data were processed

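The deposited table held 1 value per gene and library, a signal that is never negative: the authors divided read counts by 1 size factor per library, as the values show, since all were whole multiples of a step per library (within 0.01) with size factors from 0.989 to 1.05. The submitters' processing notes name the build mm10 and the tools DESeq2, HTSeq 0.9.1, TopHat2 2.1.1 and R 3.4.0; what each did, the annotation and the strand setting were not given in the sources used here. Of 48526 genes, 17677 were at 0 in every library. Totals of 5120585 to 5569444 reads per library mean that a level of a few counts is set mostly by counting error. Libraries were grouped by the titles and genotypes of the labels.

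From these values, limma 3.58.1 (trend and robust, statmod 1.5.0, R 4.3.3) was fitted to log2(normalized count + 1), two-sided, 5 knockouts against 4 controls with no covariate, over the 13780 genes with a mean of at least 10, with p-values adjusted by the Benjamini-Hochberg method and a threshold of 0.05. No count model was fitted. The method was tested on simulated counts, with the same dispersion for every gene and no library that stood apart as control 1 does. That test therefore does not cover calls that depend on such a library. Gene lengths and positions are from GENCODE M21 (mm10), and symbols matched 48058 identifiers; promoter windows are from RefSeq. Genes were named by rule: the GABA-A subunits (some are not reported here), Ctnnb1, up to 3 genes with the smallest p from each related list, and for each tested subunit the 2 nearest profiles with a mean of at least 50. The subunits and lists were chosen with earlier results of these data known. Alternatives were pseudocounts of 0.5 and 8, no filter or a mean of at least 50, TMM (trims of 30% and 5%) and upper-quartile scaling, a fit with no trend, array weights, a replicate block, each library left out, controls 2 and 3 only, and a log2 fold change of at least 1.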

Additional observations from a re-analysis of the deposited data

Results flagged for a closer look

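In 10 of 72 combinations of a named gene and a group, a single library stood far from the others of its group by Dixon's criterion at the 95% level. The usual chance share of about 1 in 20 cannot be set against this count. A few reads in 1 library against 0 in the others meet the criterion by construction, and some genes were chosen by their profile. Control 1 gave 4 of them. It had 59.6 normalized counts of Gabra2, against 22.9 to 28.1 in the other controls, and 34.4 of Gabra4, against 5.02 to 9.93. It had 399 of Draxin, against 119 to 151, and 6.06 of Elfn1, against 22.8 to 25.1. Draxin and Elfn1 were named for profiles near Gabra2 and Gabrg3 in these same libraries, so their flags are not independent of the subunits. Control 1 is also the library with the high dorsal telencephalon and choroid plexus sums; their part in these values was not tested. Knockout 2 had 49.9995 normalized counts of Arhgap20, against 91.3 to 102 in the other knockouts.

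The remaining cases are single reads or a few reads against 0. Gabra6 was at 1.005 normalized counts in control 3 and at 0 in the other controls. Gabrd was at 3.96 in knockout 1 and 2.99 in control 4, and at 0 in the other libraries. Gabrr3 was at 0.989 in knockout 1 and 1.005 in control 3, and at 0 in the other libraries.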

How the results depend on the processing

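Ctnnb1 and the higher calls of Gabra3, Gabrb2 and Gabrg3 passed the threshold in every alternative fit in which they were tested; a log2 fold change of at least 1, required in addition, leaves 2 of the 3 subunits, since Gabra3 is at 0.98. The 3 higher subunits became 5 with no filter and 0 with a mean of at least 50, which none of the 7 reaches, and ranged from 3 to 4 over fits that left out 1 library. Adjusted p-values of the fit with no filter are not comparable with those of the filtered fits. In the filtered fits Gabrg3 was tested only through its knockout libraries. Higher and lower calls over all genes were 1370 and 1108 against controls 2 and 3 only, where fewer libraries were used, and 583 and 256 at a log2 fold change of at least 1. The log2 fold change of Gabra4 turned to 0.26 against controls 2 and 3; over left-out libraries it ranged from -0.64 to 0.21 (0.02 without knockout 2, 0.21 without control 1), that of Nfatc4 from -0.56 to 0.11, and that of Fam49a from -0.034 to 0.57. The cause was not tested.

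Among the 9 further subunits, the lower count was 1 with a pseudocount of 0.5, no filter, no trend, array weights or a log2 fold change of at least 1, 0 with a mean of at least 50 or controls 2 and 3 only, and 0 to 2 over left-out libraries. Partners numbered 4 higher at a log2 fold change of at least 1, and 1 lower with array weights or controls 2 and 3 (0 to 1 over left-out libraries). GABA-B genes were 2 higher with no filter, array weights or controls 2 and 3, 0 at a log2 fold change of at least 1, and 1 to 2 over left-out libraries. GABA supply genes were 0 lower at a log2 fold change of at least 1. Glycine receptor genes were 0 higher with a mean of at least 50, and 0 lower with no filter, array weights, controls 2 and 3 or a log2 fold change of at least 1, and 0 to 1 over left-out libraries.

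Replicate numbers did not pair the libraries: same-numbered libraries' deviations correlated at -0.117, -0.0916, 0.137 and -0.0406. With the number as a replicate block, in which knockout 5 has no partner, 3 subunits, Gabra3, Gabrb2 and Gabrg3, were higher, and 0 further subunits and 0 glycine receptor genes were lower. TMM and upper-quartile scaling moved the median of all genes by -0.00337 and 0.00151 on the log2 scale. Depth limits the 7 subunits, all of which averaged under 60 normalized counts in each group.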
